A study of Homo sapiens with 12 samples.

Results

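The 47 genes described here code for proteins that prepare replication origins, unwind and copy DNA, supply deoxynucleotides, rebuild chromatin behind the replication fork or drive cells from G1 into S phase. They were taken by gene symbol from a list of known replication and G1/S genes, by a rule that uses no measured value. The list itself was chosen with earlier results of these data known, so it is not independent of them. Each symbol occurred once among the 60715 genes of the deposited table, and all 47 were among the 17395 genes left by the filter on low counts. RNA was sequenced from 4 established lines of human lung adenocarcinoma. They are NCI-H2009, LC-2/ad, known for a RET fusion, NCI-H2228, known for an ALK fusion, and HCC4006, known for an activating EGFR deletion. The groups were cells detached for 1 day, cells detached for 7 days and attached cells, the controls. Every group holds 1 library of each line, so n = 4 lines. The lines were maintained in RPMI-1640 with serum and antibiotics. For detachment, cells were lifted with trypsin and kept on plates with an ultra-low attachment surface. The attached controls carry no time label, so loss of attachment, trypsin, replating and time in culture cannot be told apart here. Values of the 4 lines are always given in that order of lines.

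Library totals lay between 31134420 and 41882024 estimated counts. The epithelial identity of the lines showed in every library: EPCAM stood at 204 TPM or more, and KRT8, KRT18 and KRT19 at 549.6 TPM or more. The remaining epithelial marker, CDH1, varied from 16.2 to 685 TPM. TPM is an abundance of transcripts scaled for gene length and library size. Of the lung markers, NKX2-1 was between 26.5 and 107 TPM, while the surfactant gene SFTPB was at 0 in at least 1 library and reached no more than 32.8 TPM. NAPSA ran from 1.90 to 705 TPM and KRT7 from 411 to 5175 TPM. The 8 leukocyte markers summed to 33.9 to 87.4 TPM after 1 day, 18.9 to 120.1 TPM after 7 days and 3.60 to 38.5 TPM in attached culture, mainly from CD14 and CD68. The defining markers PTPRC and TYROBP were at no more than 0.834 TPM and at 0. The 7 fibroblast markers summed to at most 377 TPM, in attached NCI-H2228, mostly COL1A1, and the 4 endothelial markers to at most 13.2 TPM. Mitochondrially encoded transcripts made up 0.526% to 3.39% of TPM.

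Replication begins when the origin recognition complex, CDC6 and CDT1 load the ring-shaped MCM2-7 helicase onto DNA in G1. Cyclin E kinase activity, helped by the phosphatase CDC25A, and the kinase CDC7 then allow CDC45 and GINS to join the ring, and the active helicase opens the fork. Polymerases alpha, delta and epsilon copy the strands with the sliding clamp PCNA, which the RFC complex loads. Many of the genes are classical targets of E2F transcription factors, which are held back by the RB protein until cells commit to division. In tumour lines these transcripts are known to be plentiful in growing cultures and scarce in resting ones. In bulk libraries, fewer cells in S phase and less RNA per cell cannot be told apart.

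E2F proteins bind GC-rich words upstream of such genes, so the promoters were searched for the word TTGGCGC, the word TTCGCGC and the word TTCCCGC on both strands, with overlapping matches counted. RefSeq promoters, 250 bases before to 50 bases after the gene start in GRCh38.p14, were given for 41 of the 47 genes; MCM4, MCM5, GINS4, RPA2, RPA3 and CCNE2 had no entry. At least 1 word occurred in 31 of the 41 promoters (75.6%), against 3047 of all 27305 promoters (11.2%) and 17.3% of the 11921 promoters of genes tested. At least 2 matches occurred in 31.7% of the 41 and in 1.36% of all promoters. The CCAAT box, CCAAT on either strand, was in 53.7% of the 41 and in 35.7% of all. The words TTTGAA and TTCGAA, associated with the CHR element of genes expressed late in the cycle, were in 4.88% of the 41 and in 16.6% of all. A match is a description of letters and not a bound site. The first 6 windows belong to genes whose levels are given in detail, and the last, RRM2, shows a gene of the same groups with no E2F word in its promoter. Each runs 5′ to 3′ and ends at the base before RefSeq's gene start, on GRCh38.p14, which can differ from the start in the deposited table (UHRF1 is an example), with E2F words in capitals.
MCM6, chr2:135876444-135876604, minus strand: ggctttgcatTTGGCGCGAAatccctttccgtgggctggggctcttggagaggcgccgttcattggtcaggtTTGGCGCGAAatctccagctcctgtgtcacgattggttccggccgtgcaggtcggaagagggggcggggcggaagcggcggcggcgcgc
PCNA, chr20:5126623-5126722, minus strand: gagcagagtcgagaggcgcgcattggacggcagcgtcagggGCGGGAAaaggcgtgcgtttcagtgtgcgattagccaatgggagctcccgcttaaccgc
RFC3, chr13:33818049-33818148, plus strand: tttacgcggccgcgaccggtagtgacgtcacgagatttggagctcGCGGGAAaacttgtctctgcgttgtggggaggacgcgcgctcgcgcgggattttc
UHRF1, chr19:4909387-4909500, plus strand: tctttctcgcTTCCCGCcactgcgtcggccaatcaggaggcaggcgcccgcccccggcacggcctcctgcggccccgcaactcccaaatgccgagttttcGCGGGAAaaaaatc
TYMS, chr18:657553-657652, plus strand: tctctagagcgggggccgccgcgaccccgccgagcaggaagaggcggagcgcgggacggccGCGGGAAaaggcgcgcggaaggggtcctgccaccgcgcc
CDC25A, chr3:48188418-48188517, minus strand: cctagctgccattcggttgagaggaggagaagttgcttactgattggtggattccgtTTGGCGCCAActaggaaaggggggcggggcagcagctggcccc
RRM2, chr2:10122639-10122738, plus strand: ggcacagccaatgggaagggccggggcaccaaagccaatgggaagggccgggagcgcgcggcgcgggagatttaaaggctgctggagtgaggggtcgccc
In MCM6 the words overlap in 2 places as runs that read as one word on each strand, and in CDC25A both strands share a single run. PCNA, RFC3 and TYMS each hold 1 copy of TTCCCGC, written here as its reverse complement, and UHRF1 holds 1 copy on each strand. After 7 days the median log2 change was -0.67 over the 31 genes with a word and -1.10 over the 10 without one.

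After 1 day without attachment the replication genes were furthest below their attached level in NCI-H2228. Most were also lower after 1 day in LC-2/ad and HCC4006, but in NCI-H2009 only on a TPM scale. There, on log2(TPM + 1), the NCI-H2009 median was -0.29 for these genes and -0.17 for all genes. After 7 days most replication genes were lower in each of the 4 lines. In NCI-H2228 all 47 genes were below their attached level at both times in log2 CPM, the count scaled to library size, and 46 were after 7 days on log2(TPM + 1). The summed level of the 47 genes was 3339, 4056, 1291 and 2971 TPM after 1 day, 2927, 3612, 1631 and 2549 TPM after 7 days and 3687, 4689.8, 3701 and 4113 TPM in attached culture, so that attached cells were highest in each line. Only GINS1 passed the threshold of 0.05 for the adjusted p of edgeR's quasi-likelihood test with cell line as a block, and only after 1 day. Fitted log2 changes are given ± SE, and a negative one means lower than in attached culture.

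After 1 day, 46 of 47 fitted log2 changes were below 0, with RPA2 as the exception, and their median was -0.45, against 0.01 for all genes tested. A single member, GINS1, was called lower and none higher, where the test called 0.489% of all genes and 0.339% as lower. At an unadjusted p under 0.05, 13 members were lower, against a background of 9.0%, and 0 were higher, against 10.6%. DESeq2 called 4, GINS1, RFC3, RRM1 and UHRF1, where it called 9.82% of all genes, and limma on log2(TPM + 1) called 1, GINS1 (1.95%). Differences within a line, in log2 CPM, showed 16 members lower in all 4 lines, against 16.5% of all genes, and 0 higher in all 4, against 17.1%. On log2(TPM + 1) the count was 24, against 21.3%. Without NCI-H2228 the members' median was -0.18, and 35 log2 changes were below 0.

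The lines differed in size after 1 day. Median differences of the 47 genes were 0.09, -0.18, -1.55 and -0.31, and 20, 36, 47 and 42 of the 47 were lower, where 48.3%, 47.9%, 48.0% and 49.7% of all genes were. In NCI-H2228, 34 members were lower by over 1 log2 unit, that is more than 2-fold, where 10.3% of all genes were. In the other lines that number was 5 for NCI-H2009 (background 20.3%), 0 for LC-2/ad (7.75%) and 2 in HCC4006 (6.85%). With 1 library per line and state, these differences have no test. Other measures also differed in NCI-H2228: mitochondrially encoded transcripts made up 1.76% of TPM after 1 day, 1.41% after 7 days and 0.526% in attached culture. The 7 fibroblast markers there summed to 183 TPM after 1 day, 46.0 TPM after 7 days and 377 TPM in attached culture. In LC-2/ad the mitochondrial share was 3.39% after 1 day, 2.02% after 7 days and 1.56% in attached culture. In the same order it was 1.94%, 2.68% and 1.49% in HCC4006 and 1.28%, 0.968% and 1.03% in NCI-H2009. The 1-day share was thus above the attached one in every line. The part of these measures in the members' values was not tested.

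The 1-day value of NCI-H2009 depended on the scale. Its median was 0.09 in log2 CPM but -0.29 on log2(TPM + 1), where the median of all genes was -0.17 and 33 members were lower in place of 20. In the same comparison, the median log2 CPM difference was 0.29 for the shortest 25% of all genes and -0.32 for the longest. The part of gene length in the members' values was not tested.

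After 7 days, 47 of 47 log2 changes were below 0, with a median of -0.68, against 0.03 for all genes. edgeR called 0 members, where it called 0.103% of all genes and 0.0977% as lower. At an unadjusted p under 0.05, 30 members were lower, against a background of 7.18%, and 0 were higher (8.46%). DESeq2 called 18 members, all lower, where it called 6.68% of all genes, and limma on log2(TPM + 1) called 0 (0.391%). In log2 CPM, 38 members were lower in all 4 lines, against 13.8% of all genes, and 0 were higher in all 4 (14.6%). On log2(TPM + 1) 26 were lower in all 4, against 12.1%. Line medians were -0.54, -0.40, -1.13 and -0.67 in log2 CPM, and 42, 44, 47 and 45 members were lower, where 46.5%, 48.6%, 47.9% and 50.1% of all genes were. On log2(TPM + 1) the NCI-H2009 median was -0.28, with 0.20 for all genes. On that scale 31, 37, 46 and 45 members were lower after 7 days, and 33, 37, 47 and 42 after 1 day. The share of all genes lower in each line is not given on that scale. Medians of all genes there were 0.20, 0.02, 0 and -0.08 after 7 days and -0.17, 0, -0.05 and -0.05 after 1 day. These counts therefore hold a shift of all genes, above all in NCI-H2009. Members lower by over 1 log2 unit numbered 12 for NCI-H2009 (background 13.6%), 1 for LC-2/ad (7.97%), 32 for NCI-H2228 (10.1%) and 9 in HCC4006 (8.73%). Without NCI-H2228 the median was -0.52, and 45 log2 changes were below 0.

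**Figure D1:**
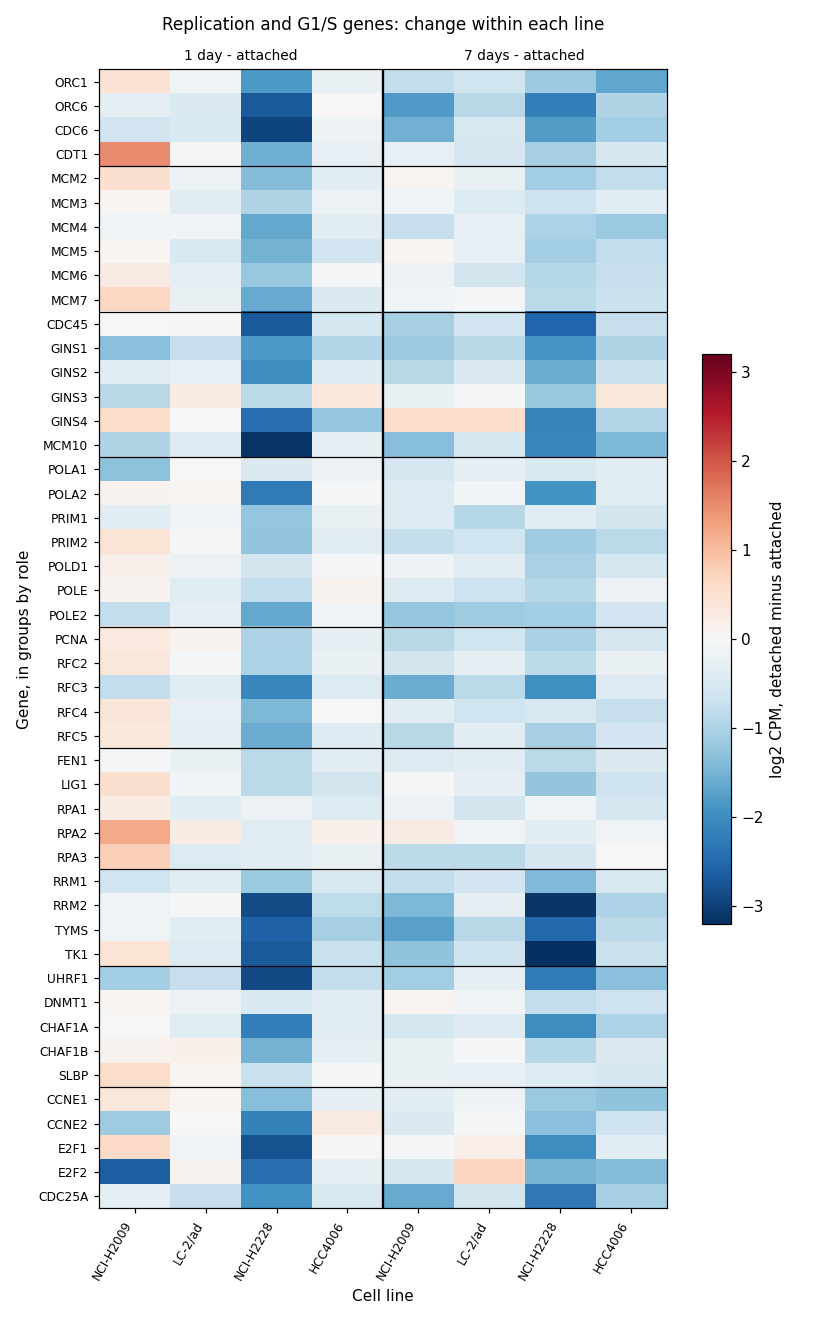
Difference in log2 CPM (colour, detached minus attached) of the 47 genes (rows, by role, black lines between roles) in each cell line (columns), after 1 day on the left and after 7 days on the right. NCI-H2228 is below 0 for every gene at both times. After 1 day LC-2/ad and HCC4006 are mostly below 0, while NCI-H2009 has 20 genes lower and 27 higher. After 7 days all of these lines are mostly below 0.

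Set directly against 1 day, the 7-day libraries showed different courses by line. Median differences, 7 days minus 1 day, were -0.55, -0.22, 0.27 and -0.29, so that NCI-H2228 alone had more members higher (34) than lower (13). In the other lines 41, 39 and 40 members were lower. Of all genes, 46.8%, 50.8%, 49.9% and 49.0% were lower. Members lower by over 1 log2 unit numbered 12, 0, 0 and 3, where 14.8%, 8.67%, 13.0% and 6.82% of all genes were. The median of NCI-H2009 was -0.55 in log2 CPM, but -0.00322 on log2(TPM + 1), where the median of all genes was 0.41. edgeR called 0 members here and 0% of all genes. At an unadjusted p under 0.05, PRIM2 and PCNA were lower, 2 members against a background of 4.93%, and 0 were higher (4.85%). In all 4 lines, 5 members were lower (8.69% of all genes) and 0 higher (9.61%). DESeq2 and limma called 0 (background 1.11% and 0%). This comparison shares its 7-day libraries and its 1-day libraries with the comparisons against attached cells.

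**Figure D2:**
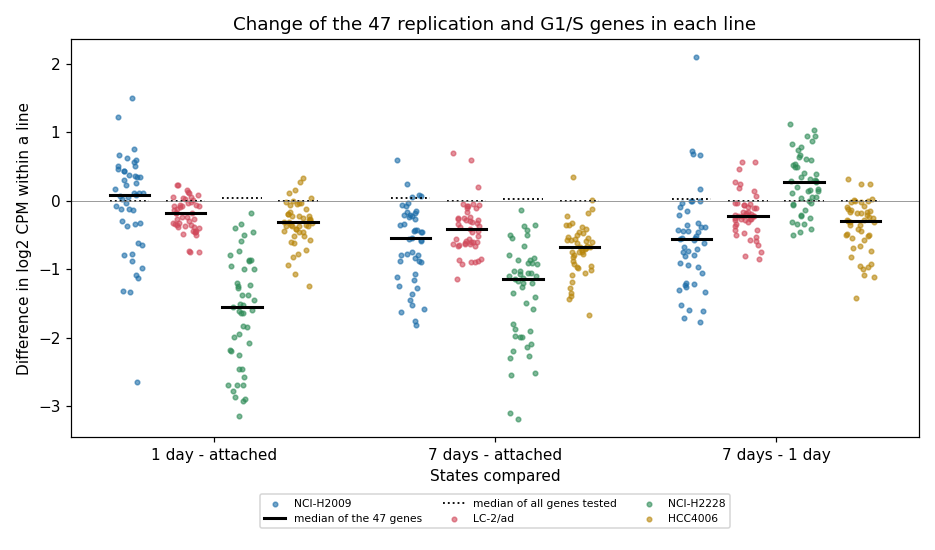
Differences in log2 CPM within each cell line (points, 1 per gene, coloured by line) for 1 day minus attached, 7 days minus attached and 7 days minus 1 day. Thick bars are medians of the 47 genes and dotted bars medians of all genes tested; the median of NCI-H2228 is -1.55 after 1 day, -1.13 after 7 days and 0.27 between the 2 times.

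The origin recognition and licensing group held ORC1 and ORC6, subunits of the complex that marks origins, and CDC6 and CDT1, which load the helicase. Of the 4 genes, 2 were lower in each of the 4 lines after 1 day and 4 after 7 days, with median log2 changes of -0.59 and -1.17. CDC6 stood at 59.6, 100.2, 5.39 and 53.8 TPM after 1 day, 42.4, 101, 13.9 and 28.8 TPM after 7 days and 107, 137, 53.1 and 63.2 TPM in attached culture. It was lower in each detached library than in the attached library of its line, with the lowest level in NCI-H2228. CDC6 had fitted log2 changes of -0.97 ± 0.40 after 1 day (adjusted p = 0.222) and -1.28 ± 0.39 after 7 days (adjusted p = 0.18). ORC6 stood at 23.3, 28.2, 6.03 and 18.8 TPM after 1 day, 12.4, 21.6, 9.34 and 9.44 TPM after 7 days and 36.1, 37.9, 43.6 and 20.3 TPM in attached culture. Its attached level was the highest of the 3 states in each line, and the 1-day difference in HCC4006 was only -0.01. In edgeR, ORC6 had log2 changes of -0.81 ± 0.40 after 1 day (adjusted p = 0.299) and -1.52 ± 0.40 after 7 days (adjusted p = 0.147). ORC1 showed log2 differences of 0.47, -0.13, -1.84 and -0.25 after 1 day and -0.79, -0.63, -1.17 and -1.66 after 7 days. CDT1 differed in sign between lines after 1 day, with 1.5, 0.03, -1.55 and -0.26: its level in NCI-H2009 was 88.1 TPM after 1 day, 39.8 TPM after 7 days and 36.2 TPM in attached culture.

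The MCM2-7 group codes for the 6 different subunits of the replicative helicase ring. Of the 6 genes, 1 was lower in each of the 4 lines after 1 day and 4 after 7 days, with median log2 changes of -0.37 and -0.55. Summed over the 6 subunits, the level was 578, 801, 247 and 508 TPM after 1 day, 653, 826, 375 and 395 TPM after 7 days and 618, 953, 697 and 701 TPM in attached culture. Detached cells were thus below attached ones in every line but NCI-H2009 at both times, while NCI-H2009 was slightly below after 1 day and above after 7 days. MCM4 stood at 113, 153, 51.1 and 60.4 TPM after 1 day, 107, 145, 90.5 and 32.8 TPM after 7 days and 154, 161, 159 and 92.5 TPM in attached culture. It was lower than attached in each line at both times. For MCM4, edgeR gave log2 changes of -0.53 ± 0.27 after 1 day (adjusted p = 0.303) and -0.81 ± 0.26 after 7 days (adjusted p = 0.196). MCM6 stood at 57.3, 59.1, 24.7 and 66.9 TPM after 1 day, 65.7, 50.3, 33.5 and 41.3 TPM after 7 days and 61.0, 73.6, 63.7 and 74.1 TPM in attached culture. In NCI-H2009 its 7-day TPM was above the attached one while its log2 CPM difference was -0.18; the other lines were lower at both times. MCM6 had fitted log2 changes of -0.32 ± 0.22 after 1 day (adjusted p = 0.448) and -0.63 ± 0.22 after 7 days (adjusted p = 0.223). MCM5 stood at 66.3, 75.9, 22.5 and 68.0 TPM after 1 day, 103, 92.9, 32.3 and 58.6 TPM after 7 days and 81.2, 107, 71.0 and 107 TPM in attached culture. After 1 day its TPM was lower in each line, while its log2 CPM difference in NCI-H2009 was 0.07. In edgeR, MCM5 had log2 changes of -0.66 ± 0.24 after 1 day (adjusted p = 0.17) and -0.56 ± 0.24 after 7 days (adjusted p = 0.297). The share of the 6 subunits taken by MCM4 in HCC4006 was 11.9% after 1 day, 8.32% after 7 days and 13.2% in attached culture. In the other lines it stayed between 16.4% and 25%. MCM2, MCM3 and MCM7 had 7-day log2 changes of -0.55 ± 0.26, -0.41 ± 0.17 and -0.46 ± 0.30.

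**Figure D3:**
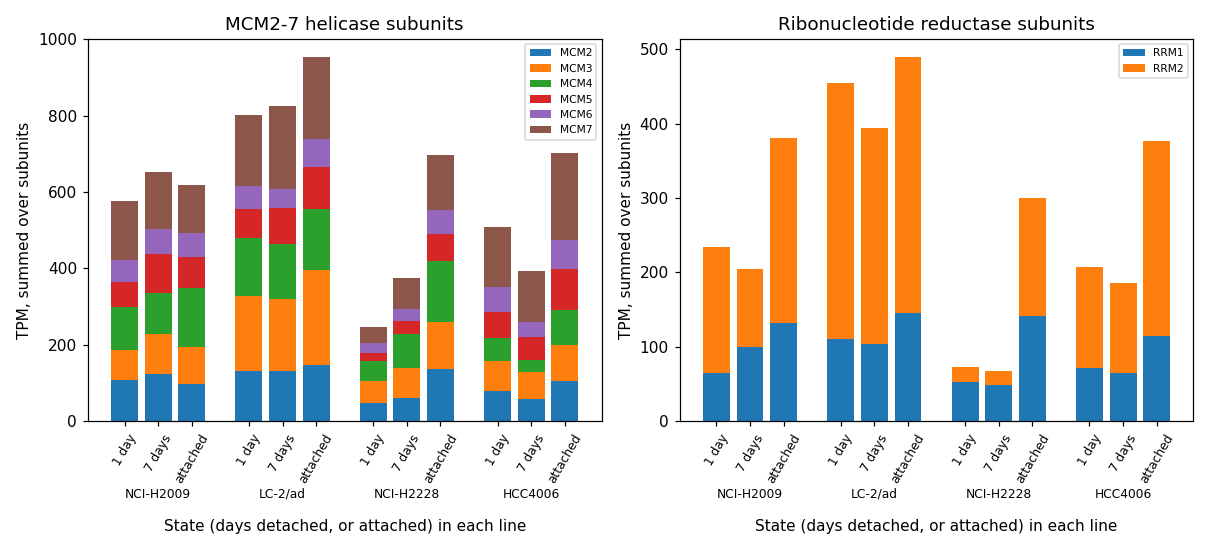
Stacked TPM of the 6 MCM2-7 subunits (left) and of the ribonucleotide reductase subunits RRM1 and RRM2 (right) in the 12 libraries, by line and state, with no error bars because each bar is 1 library. In NCI-H2228 the MCM sum is 247 TPM after 1 day and 375 TPM after 7 days, against 697 TPM in attached cells, and RRM2 shrinks more than RRM1.

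The helicase activation group joins CDC45, the 4 GINS subunits that complete the active helicase, and MCM10, which helps to fire it. Of the 6 genes, 3 were lower in each of the 4 lines after 1 day and 4 after 7 days, with median log2 changes of -0.86 and -1.09. GINS1 (chromosome 20, 25407673 to 25452628, GRCh38) was the gene that fell past the threshold. It stood at 5.51, 14.3, 2.98 and 13.8 TPM after 1 day, 9.91, 13.1, 3.0 and 13.6 TPM after 7 days and 18.0, 23.9, 11.4 and 27.5 TPM in attached culture. Both detached levels were below the attached level of the same line in all 4 lines. GINS1 had a log2 change of -1.22 ± 0.22 after 1 day (edgeR adjusted p = 0.0496) and -1.24 ± 0.22 after 7 days (adjusted p = 0.0784), with 1-day differences of -1.33, -0.73, -1.83 and -0.94. The 1-day call was lost with DESeq2's size factors (adjusted p = 0.0523, where 0.0115% of all genes were called), in a fit of the 1-day and attached libraries alone (0.134) and when any line was left out (0.118 without NCI-H2009, 0.247 without LC-2/ad, 0.202 without NCI-H2228 and 0.159 without HCC4006). GINS2 stood at 27.2, 34.9, 7.81 and 24.3 TPM after 1 day, 29.5, 31.7, 11.4 and 19.9 TPM after 7 days and 45.0, 41.6, 34.7 and 34.4 TPM in attached culture. All 4 of its 7-day levels were below all 4 attached levels. For GINS2, edgeR gave log2 changes of -0.76 ± 0.27 after 1 day (adjusted p = 0.17) and -0.94 ± 0.27 after 7 days (adjusted p = 0.162).

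The other subunits behaved less evenly. GINS4 stood at 23.2, 13.9, 3.85 and 4.42 TPM after 1 day, 26.2, 24.7, 4.70 and 7.62 TPM after 7 days and 16.8, 14.5, 22.7 and 13.8 TPM in attached culture. It was higher after 7 days than in attached culture in NCI-H2009 and LC-2/ad and lower in NCI-H2228 and HCC4006. Its log2 change after 7 days was -0.61 ± 0.51 (adjusted p = 0.597) and 0.04 without NCI-H2228. GINS3 was the main GINS transcript in detached NCI-H2228, with 49.6% of the 4 subunits after 1 day and 39.3% after 7 days, against 29.4% in attached culture. MCM10 had log2 changes of -1.16 ± 0.41 and -1.42 ± 0.41 after 1 and 7 days, with a 1-day difference of -3.14 in NCI-H2228, and its 7-day levels did not overlap the attached ones. CDC45 had log2 changes of -0.82 ± 0.42 and -1.33 ± 0.41.

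The primase and polymerase group holds the polymerase alpha and primase subunits POLA1, POLA2, PRIM1 and PRIM2, which start each new strand, POLD1, the catalytic subunit of the lagging strand polymerase, and POLE and POLE2 of the leading strand polymerase. Of the 7 genes, 3 were lower in each of the 4 lines after 1 day and 7 after 7 days, with median log2 changes of -0.44 and -0.56. POLE2 stood at 7.41, 12.2, 7.48 and 29.7 TPM after 1 day, 7.52, 7.23, 11.1 and 23.0 TPM after 7 days and 16.0, 14.5, 23.8 and 32.9 TPM in attached culture. It was lower than attached in each line at both times. POLE2 had fitted log2 changes of -0.68 ± 0.28 after 1 day (adjusted p = 0.214) and -1.03 ± 0.28 after 7 days (adjusted p = 0.151). PRIM2 stood at 20.2, 30.1, 10.6 and 15.1 TPM after 1 day, 14.6, 23.7, 10.8 and 10.7 TPM after 7 days and 19.8, 33.5, 26.3 and 21.7 TPM in attached culture. After 7 days it was lower in each line. In edgeR, PRIM2 had log2 changes of -0.29 ± 0.26 after 1 day (adjusted p = 0.567) and -0.87 ± 0.26 after 7 days (adjusted p = 0.168). Its 7-day differences were -0.77, -0.63, -1.13 and -0.87, while its 1-day log2 change was 0.01 without NCI-H2228. The remaining members had 7-day log2 changes between -0.78 ± 0.37 for POLA2 and -0.43 ± 0.23 for POLA1. Reads of POLA2 and PRIM1 may be shared with neighbours on the same strand, AP000944.5 over 43662 bases and NACA over 333 bases, so their levels are uncertain.

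The clamp group holds PCNA, the sliding clamp, and 4 subunits of its loader, RFC2 to RFC5. Of the 5 genes, 1 was lower in each of the 4 lines after 1 day and 5 after 7 days, with median log2 changes of -0.28 and -0.74. PCNA was among the most abundant members and stood at 204, 274, 119 and 303 TPM after 1 day, 139, 171, 123 and 252 TPM after 7 days and 210.4, 257, 261 and 391 TPM in attached culture. After 7 days it was lower in each line, with differences of -0.89, -0.63, -1.05 and -0.53. For PCNA, edgeR gave log2 changes of -0.20 ± 0.22 after 1 day (adjusted p = 0.658) and -0.78 ± 0.22 after 7 days (adjusted p = 0.162). RFC3 (chromosome 13, 33818069 to 33966558) stood at 25.3, 34.0, 9.15 and 30.3 TPM after 1 day, 21.6, 25.7, 10.4 and 30.8 TPM after 7 days and 52.4, 43.6, 41.4 and 43.5 TPM in attached culture. At both times its 4 detached levels were all below its 4 attached levels. RFC3 had fitted log2 changes of -0.94 ± 0.30 after 1 day (adjusted p = 0.138) and -1.24 ± 0.30 after 7 days (adjusted p = 0.133). The other loader subunits had smaller 7-day log2 changes, -0.50 ± 0.22 for RFC2, -0.56 ± 0.28 for RFC4 and -0.74 ± 0.29 for RFC5. RFC3 made up 11.7, 11.1, 7.98 and 13.3% of the 4 RFC transcripts after 1 day, 12.1, 9.85, 5.16 and 16.9% after 7 days and 21.7, 12.7, 12.3 and 15.7% in attached culture. Its share was lower in both detached states than in attached culture in NCI-H2009, LC-2/ad and NCI-H2228, but in HCC4006 only after 1 day.

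Some genes had all 4 detached levels below the 4 attached ones. After 1 day they were RFC3, RRM1 and UHRF1, 3 members, against 2.90% of all genes. After 7 days they were GINS2, MCM10, RFC3 and RRM1, 4 members, against 1.36%. No member's 7-day levels lay wholly below its 1-day levels, against 0.178%.

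**Figure D4:**
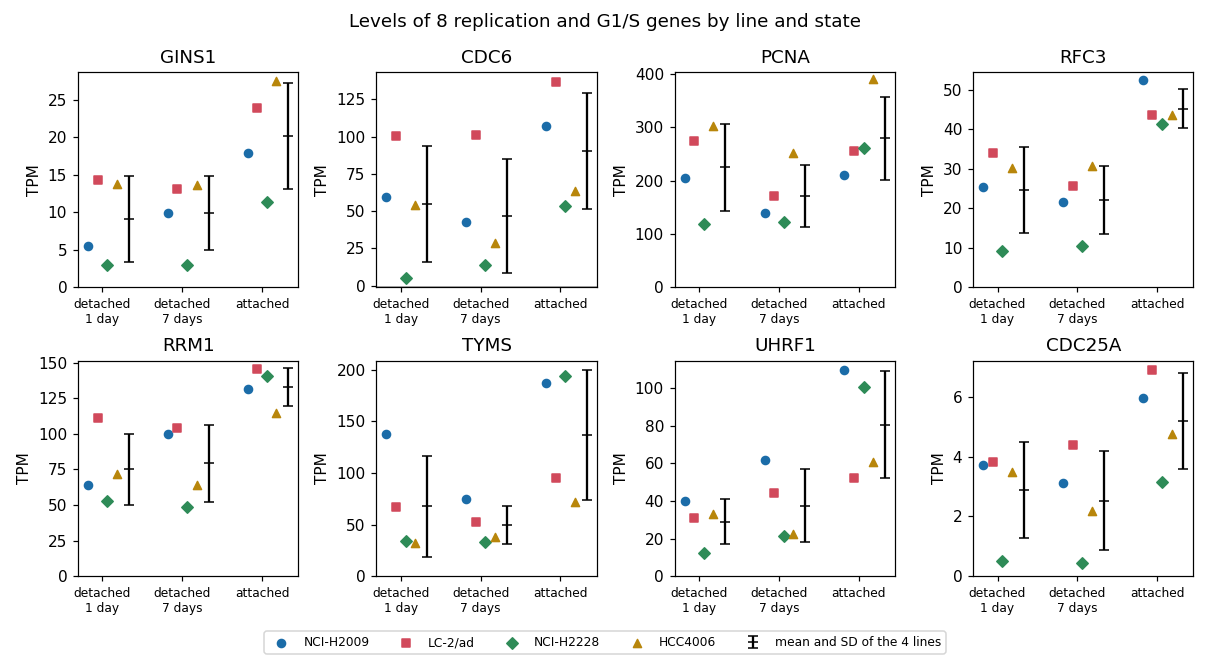
TPM of 8 genes in the 12 libraries (points, shape and colour by cell line) after 1 day, after 7 days and in attached culture, each axis starting at 0, with mean and SD of the 4 lines beside the points. RFC3 and RRM1 are below the attached levels in every detached library, while PCNA overlaps them at both times.

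In the group of Okazaki fragment joining and single-strand binding, FEN1 trims fragment ends, LIG1 seals them, and RPA1, RPA2 and RPA3 coat single-stranded DNA. Of the 5 genes, 1 was lower in each of the 4 lines after 1 day and 3 after 7 days, with median log2 changes of -0.19 and -0.53. FEN1 stood at 90.7, 126, 54.3 and 119 TPM after 1 day, 109, 122, 58.5 and 111 TPM after 7 days and 122, 147, 108 and 162 TPM in attached culture. It was lower than attached in all 4 lines at both times, with a 1-day log2 difference of -0.87 in NCI-H2228. In edgeR, FEN1 had log2 changes of -0.39 ± 0.16 after 1 day (adjusted p = 0.223) and -0.54 ± 0.16 after 7 days (adjusted p = 0.172). FEN1 overlaps FADS2 on the same strand over 4259 bases, so its level is uncertain. LIG1 stood at 37.9, 83.2, 9.62 and 52.1 TPM after 1 day, 42.2, 74.8, 9.83 and 49.3 TPM after 7 days and 34.2, 88.5, 21.4 and 81.5 TPM in attached culture. In NCI-H2009 its TPM was above the attached one at both times, while its log2 CPM difference was 0.52 after 1 day and -0.03 after 7 days; the other lines were lower on both scales. For LIG1, edgeR gave log2 changes of -0.27 ± 0.23 after 1 day (adjusted p = 0.533) and -0.59 ± 0.23 after 7 days (adjusted p = 0.253). RPA2 was the only member with a positive log2 change after 1 day, 0.31 ± 0.23 (adjusted p = 0.473), with levels of 191, 166, 79.0 and 119 TPM after 1 day and 107, 138, 116 and 114 TPM in attached culture. RPA1 and RPA3 had 7-day log2 changes of -0.37 ± 0.16 and -0.53 ± 0.27. The annotation of RPA3 overlaps UMAD1 on the opposite strand, and the use of strand in counting is not given in the sources used here.

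The nucleotide supply group had the lowest median after 7 days. It holds RRM1 and RRM2, the large and small subunit of ribonucleotide reductase, thymidylate synthase (TYMS) and thymidine kinase (TK1). Of the 4 genes, 3 were lower in each of the 4 lines after 1 day and 4 after 7 days, with median log2 changes of -0.96 and -1.52. RRM1 (chromosome 11, 4094707 to 4138932) stood at 64.4, 111, 52.8 and 71.9 TPM after 1 day, 100.2, 104, 48.9 and 64.4 TPM after 7 days and 131, 145, 141 and 115 TPM in attached culture. Every detached level was below every attached level. RRM1 had fitted log2 changes of -0.68 ± 0.18 after 1 day (adjusted p = 0.0958) and -0.84 ± 0.18 after 7 days (adjusted p = 0.111). RRM2 stood at 169.6, 344, 20.1 and 135 TPM after 1 day, 105, 289.8, 18.7 and 122 TPM after 7 days and 249, 344, 159 and 263 TPM in attached culture. In LC-2/ad the 1-day level equalled the attached one to 3 digits, and in NCI-H2228 both detached levels were far below the attached one. In edgeR, RRM2 had log2 changes of -1.03 ± 0.47 after 1 day (adjusted p = 0.262) and -1.54 ± 0.47 after 7 days (adjusted p = 0.178). The ratio of RRM2 to RRM1 in TPM was 2.63, 3.10, 0.380 and 1.87 after 1 day, 1.05, 2.78, 0.384 and 1.89 after 7 days and 1.90, 2.37, 1.13 and 2.29 in attached culture. NCI-H2228 was the line where detached cells held more RRM1 than RRM2 at both times.

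TYMS stood at 137, 67.0, 34.3 and 32.3 TPM after 1 day, 74.4, 52.5, 32.6 and 38.1 TPM after 7 days and 187, 94.8, 195 and 71.6 TPM in attached culture. It was lower than attached in all 4 lines at both times. For TYMS, edgeR gave log2 changes of -1.02 ± 0.40 after 1 day (adjusted p = 0.201) and -1.53 ± 0.40 after 7 days (adjusted p = 0.146). TYMS overlaps ENOSF1 and TYMSOS on the opposite strand, so part of its count may belong to them. TK1 was the most abundant member on average and stood at 382, 579, 57.1 and 357 TPM after 1 day, 180.2, 519, 43.7 and 356 TPM after 7 days and 368, 796, 406 and 619.9 TPM in attached culture. After 1 day NCI-H2009 was slightly above its attached level, and after 7 days all 4 lines were below. TK1 had fitted log2 changes of -0.89 ± 0.50 after 1 day (adjusted p = 0.345) and -1.52 ± 0.50 after 7 days (adjusted p = 0.196). Its differences after 7 days, -1.28, -0.66, -3.19 and -0.71, had an SD over lines of 1.19, among the 3 widest spreads of the 47 genes at that time.

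The chromatin group holds UHRF1 and DNMT1, which copy DNA methylation to the new strand, CHAF1A and CHAF1B, subunits of the CAF-1 histone chaperone, and SLBP, which binds the stem-loop of histone mRNA. Of the 5 genes, 1 was lower in each of the 4 lines after 1 day and 4 after 7 days, with median log2 changes of -0.38 and -0.45. UHRF1 (chromosome 19, 4903080 to 4962154) stood at 39.9, 30.8, 12.2 and 33.2 TPM after 1 day, 62.1, 44.4, 21.3 and 22.2 TPM after 7 days and 109.9, 52.0, 101 and 60.6 TPM in attached culture. After 1 day its 4 levels were all below the 4 attached levels, while after 7 days NCI-H2009 stood above attached LC-2/ad and HCC4006. In edgeR, UHRF1 had log2 changes of -1.39 ± 0.36 after 1 day (adjusted p = 0.0951) and -1.31 ± 0.36 after 7 days (adjusted p = 0.156). CHAF1A stood at 27.2, 13.7, 7.64 and 18.9 TPM after 1 day, 23.1, 14.4, 10.4 and 11.5 TPM after 7 days and 31.2, 17.3, 39.7 and 23.3 TPM in attached culture. Its TPM was lower than attached in each line at both times, while its 1-day log2 CPM difference in NCI-H2009 was 0.02. For CHAF1A, edgeR gave log2 changes of -0.74 ± 0.33 after 1 day (adjusted p = 0.253) and -1.05 ± 0.33 after 7 days (adjusted p = 0.186). The partner subunit CHAF1B had a 7-day log2 change of -0.45 ± 0.26, and the ratio of CHAF1A to CHAF1B was 2.60, 0.742, 1.30 and 2.10 after 1 day, 1.66, 0.964, 1.04 and 1.30 after 7 days and 2.10, 1.19, 1.93 and 1.92 in attached culture. It was lower than attached in each line after 7 days, but after 1 day it was higher in NCI-H2009 and HCC4006 and lower in the other lines. CHAF1B overlaps MORC3 on the same strand over 757 bases, so its level and this ratio are uncertain. DNMT1 and SLBP differed least, with 7-day log2 changes of -0.37 ± 0.17 and -0.37 ± 0.20.

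The G1/S regulators are the cyclin E genes CCNE1 and CCNE2, the transcription factors E2F1 and E2F2, and CDC25A, a phosphatase that activates cyclin-dependent kinases. Of the 5 genes, 1 was lower in each of the 4 lines after 1 day and 3 after 7 days, with median log2 changes of -0.72 and -0.73. CDC25A stood at 3.73, 3.82, 0.497 and 3.5 TPM after 1 day, 3.11, 4.39, 0.426 and 2.19 TPM after 7 days and 5.96, 6.91, 3.15 and 4.79 TPM in attached culture. It was lower than attached in all 4 lines at both times, and lowest in NCI-H2228. CDC25A had fitted log2 changes of -0.89 ± 0.35 after 1 day (adjusted p = 0.206) and -1.4 ± 0.36 after 7 days (adjusted p = 0.139). CCNE1 stood at 46.5, 18.2, 12.4 and 13.1 TPM after 1 day, 46.4, 16.1, 16.0 and 6.58 TPM after 7 days and 48.0, 18.0, 35.4 and 16.4 TPM in attached culture. NCI-H2228 and HCC4006 were below their attached levels at both times. NCI-H2009 was slightly below in TPM at both times, while its 1-day log2 CPM difference was 0.36. After 7 days all 4 lines were below on both scales. In edgeR, CCNE1 had log2 changes of -0.31 ± 0.28 after 1 day (adjusted p = 0.578) and -0.77 ± 0.28 after 7 days (adjusted p = 0.238). The ratio of CCNE1 to CCNE2 was 7.43, 0.841, 2.23 and 0.584 after 1 day, 2.70, 0.67, 1.56 and 0.506 after 7 days and 2.27, 0.782, 1.46 and 0.817 in attached culture. The high 1-day ratio in NCI-H2009 came with a CCNE2 level of 6.26 TPM, against 21.1 TPM in attached cells; CCNE2 overlaps INTS8 and NDUFAF6 on the opposite strand.

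E2F1 and E2F2 had the widest spreads over lines after 1 day. E2F1 stood at 26.9, 25.4, 5.12 and 21.2 TPM after 1 day, 26.2, 32.1, 9.60 and 16.0 TPM after 7 days and 22.5, 26.9, 38.8 and 21.6 TPM in attached culture. After 1 day, NCI-H2228 alone was lower by over 1 log2 unit. For E2F1, edgeR gave log2 changes of -0.54 ± 0.48 after 1 day (adjusted p = 0.565) and -0.67 ± 0.47 after 7 days (adjusted p = 0.528). Without NCI-H2228 the 1-day log2 change was 0.21. E2F2 was scarce, at 0.04, 1.83, 0.175 and 1.87 TPM after 1 day, 0.322, 2.97, 0.382 and 0.875 TPM after 7 days and 0.394, 1.68, 1.11 and 2.46 TPM in attached culture. LC-2/ad stood above its attached level at both times, and the other lines below. E2F2 had fitted log2 changes of -1.25 ± 0.58 after 1 day (adjusted p = 0.27) and -0.73 ± 0.57 after 7 days (adjusted p = 0.571). Its NCI-H2009 differences, -2.64 after 1 day and -0.54 after 7 days, rest on levels under 1 TPM.

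Differences between the lines were called for a share of the 47 genes near that of all genes. The edgeR F test of the cell line terms, over the 3 states of each line, called 28 members, against 61.2% of all genes, and the median range between the line means was 1.21 log2 units for members and 1.53 for all genes. LC-2/ad had the highest mean for 27 members, NCI-H2009 for 11, HCC4006 for 7 and NCI-H2228 for 2. NCI-H2228 had the lowest mean for 31. In attached culture, however, its summed level of 3701 TPM was close to that of NCI-H2009, 3687 TPM. The mean levels of the members over the 12 libraries ran from 1.18 TPM for E2F2 to 389 TPM for TK1, with a median of 43.0 TPM, against 9.21 TPM for all genes tested. LIG1 showed how far lines can stand apart: its mean over the 3 states was 38.1 ± 4.01, 82.2 ± 6.86, 13.6 ± 6.75 and 61.0 ± 17.8 TPM (SD over 3 states), with an adjusted p of 0.000204 for the lines in edgeR.

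Of 104 further genes of the pathway, 3 fell past the threshold after 1 day, against 0.339% of all genes, and none rose. After 7 days edgeR called 0, against 0.103% of all genes. At an unadjusted p under 0.05, 43 were lower after 7 days (7.18% of all genes) and 1 higher (8.46%). After 1 day 42 were lower at that level (9.0% of all genes) and 3 higher (10.6%). Their median log2 change was -0.46 after 1 day and -0.45 after 7 days. The 3 that fell after 1 day had an edgeR adjusted p of 0.0496 each, and with any line left out edgeR called 0 of all genes at 1 day. DBF4B, a paralogue of the regulatory subunit of the CDC7 kinase, averaged 1.22 ± 0.604 TPM after 1 day and 5.59 ± 3.15 TPM in attached culture (SD, n = 4 lines), a log2 change of -2.13 ± 0.34. POLD2, the second subunit of polymerase delta, averaged 184 ± 67.2 TPM after 1 day and 352 ± 95.5 TPM in attached culture, a log2 change of -0.84 ± 0.14. SSRP1, a subunit of the histone chaperone FACT, averaged 28.3 ± 7.59 TPM after 1 day and 63.3 ± 3.09 TPM in attached culture, a log2 change of -1.05 ± 0.18.

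Each of the 7 lists of further genes had a median below 0 after 7 days. Over the lists, 59 of 104 genes were lower in all 4 lines, against 13.8% of all genes, and 5 were higher in all 4, against 14.6%. These 5, named after their values were seen, were E2F6 (0.30 ± 0.18), RBL2 (0.64 ± 0.29), CHTF8 (0.29 ± 0.14), RRM2B (0.37 ± 0.26) and WEE1 (0.21 ± 0.19), none past the threshold. Among the 16 genes of E2F and RB control, 7 were lower and 2 higher in all 4 lines after 7 days; TFDP1, the partner of E2F proteins, had a log2 change of -0.75 ± 0.15 (adjusted p = 0.0958) and SKP2, which marks the inhibitor p27 for destruction, -0.99 ± 0.21 (adjusted p = 0.11). Among the 18 genes of licensing and firing, 14 were lower in all 4 lines, with -1.64 ± 0.34 for DBF4B and -0.93 ± 0.20 for GMNN, the inhibitor of CDT1. Among 20 further fork genes 11 were lower in all 4 lines, with -1.08 ± 0.29 for the nuclease DNA2 and -1.5 ± 0.45 for the topoisomerase TOP2A. Among 24 genes of nucleotide synthesis 12 were, with -0.80 ± 0.19 for DTYMK, thymidylate kinase. Among 9 genes of chromatin replication 7 were, with -0.63 ± 0.18 for SSRP1 and -1.2 ± 0.34 for ATAD2. The replication checkpoint list had the median closest to 0 of the 7 lists: 3 of 9 genes were lower in all 4 lines, with a median of -0.18, -0.79 ± 0.22 for the kinase CHEK1 and -0.42 ± 0.14 for RAD1. In the list of MuvB and proliferation genes, FOXM1, a factor of G2 and mitosis, had -1.41 ± 0.31 and the proliferation marker MKI67 -1.5 ± 0.44. After 1 day the smallest p in the lists, besides those 3 genes, belonged to TFDP1 (-0.60 ± 0.15) and E2F7 (-1.47 ± 0.40), MCM8 (-1.43 ± 0.32), TOP2A (-2.07 ± 0.47), DTYMK (-0.81 ± 0.19) and CTPS1 (-0.99 ± 0.26), ASF1A (-1.14 ± 0.27), RAD1 (-0.65 ± 0.14) and ATR (-0.85 ± 0.45), and FOXM1 (-1.43 ± 0.31) and MKI67 (-1.97 ± 0.45), none of them past the threshold.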

How the data were processed

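RNA from 4 lung adenocarcinoma lines in 3 states (12 libraries) was, per the labels' protocols, purified on RNeasy columns and turned into libraries (SMART-Seq v4 PLUS). The deposited table holds TPM and unnormalized estimated counts made by the authors, per the file headers; 31.5% of the counts above 0 are not whole. The submitters' processing notes name GRCh38. Not given in the sources used here: aligner, counting tool, annotation release and strand use. Deposited gene lengths were used for the split by length and for the correlations with length.

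Estimated counts were rounded and fitted in edgeR 4.0.16 (R 4.3.3) with TMM factors, filterByExpr by state and a robust quasi-likelihood model of state and cell line, which left 6 residual degrees of freedom. Adjusted p is Benjamini-Hochberg over 17395 genes with a threshold of 0.05. Log2 changes carry a standard error (SE) derived from the F statistic, which restates the test. Differences within a line are log2 CPM with a prior count of 2 and have no test. DESeq2 1.42.0 and limma 3.58.1 on log2(TPM + 1) were alternatives, as were other scalings, filters and samples. The tests were tested on simulated data.

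The lines are the replicates and the pairing comes from the shared line. Deviations from state means correlated at 0.715 to 0.818 within a line. Between lines the highest value was -0.0941. Subtracting state means pulls values between lines below 0, so these do not bear on the pairing. P-values speak of the spread between lines. Totals of 31134420 to 41882024 estimated counts per library limit precision by counting error only. The 47 members, the further lists and the rule for genes given in full were chosen with earlier results of these data known. That rule takes genes past the threshold and, in each role group, the 2 with the smallest p after 7 days and the 1 after 1 day. It also takes the 3 with the widest spread over lines at each time and, of each further list, the 2 with the smallest p. The count of members lower in all 4 lines on other scales and without NCI-H2228 was added after seeing the data. A gene that this rule names is not reported here. Protein sequence motifs were not analysed here.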

Additional observations from a re-analysis of the deposited data

Results flagged for a closer look

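There were 282 groups of 4 lines (each of the 47 genes in 3 states and in 3 comparisons). In 14 the lowest or highest value stood far from the others, by more than Dixon's 95% critical value. Chance flags about 1 in 20 groups, which is near the share found here. The groups share libraries, so they are not independent. In detached cells after 1 day, MCM3 was high in LC-2/ad (196 TPM, others 58.0 to 78.4), CCNE1 high in NCI-H2009 (46.5 TPM, others 12.4 to 18.2) and CDC25A low in NCI-H2228 (0.497 TPM, others 3.5 to 3.82). After 7 days, RFC4 was high in NCI-H2228 (138 TPM, others 53.3 to 65.0) and RFC5 high in LC-2/ad (44.0 TPM, others 26.9 to 29.8). In attached culture, MCM4 was low in HCC4006 (92.5 TPM, others 154 to 161), GINS3 high in NCI-H2228 (28.7 TPM, others 7.73 to 10.9) and MCM10 high in HCC4006 (41.2 TPM, others 15.8 to 19.7).

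Log2 differences of 1 day against attached stood apart in NCI-H2228 for 5 genes. They were -2.69 for ORC6 (others -0.45 to -0.01), -2.93 for CDC6 (others -0.62 to -0.16), -1.99 for GINS2 (others -0.42 to -0.26), -2.26 for POLA2 (others -0.03 to 0.12) and -2.90 for UHRF1 (others -1.08 to -0.74). For 7 days against 1 day, RRM2 stood apart in NCI-H2009 at -1.33 (others -0.25 to -0.16).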

How the results depend on the processing

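Over all genes, the number called after 1 day was 85, against 2 with DESeq2's size factors, 1709 with DESeq2, 265 without a filter, 0 with the 2 states alone, 290 with limma on log2(TPM + 1) and 0 whichever line was left out. After 7 days it was 18, against 6 with DESeq2's size factors, 1162 with DESeq2, 114 without a filter, 1 with the 2 states alone, 58 with limma, 28 with a mean TPM of at least 1, and 0 to 1 with a line left out. Between 7 days and 1 day it was 0, against 193 with DESeq2 and 6 without a filter. Among the 47 genes, the 1 call after 1 day became 4 with DESeq2, and 0 with its size factors, with the 2 states alone and with any line left out. The 0 calls after 7 days became 18 with DESeq2 and 1 without a filter (GINS1, adjusted p = 0.0225). Without the replicate block, edgeR called 0 of all genes and 0 members at both times (GINS1 adjusted p = 1 at each), so these calls need the cell line pairing. Line differences were called for 10649 genes, against 5866 without the attached libraries and 6868 without the 7-day ones, and for 28 members, against 11 without the 7-day ones.

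The members' median stayed below 0 in all fits, between -0.64 and -0.18 after 1 day and between -0.86 and -0.51 after 7 days. The NCI-H2009 median after 1 day, 0.09 in log2 CPM, turned to -0.29 on log2(TPM + 1) and on log2(TPM + 0.1). All genes had medians of -0.17 and -0.26 on these scales, so the members minus all genes came to only -0.12 and -0.03. The 7-day minus 1-day median of NCI-H2009, -0.55, became -0.00322 and -0.00328, where all genes had 0.41 and 0.58. Members lower in all 4 lines between 7 days and 1 day were 5, against 2 on both TPM scales and 30 without NCI-H2228 (17.2% of all genes), or 16 without it on log2(TPM + 1) (10.9%). With a line left out in turn, the 1-day log2 change ranged from -0.56 to 0.013 for PRIM2, from -0.38 to 0.055 for PCNA, from -0.54 to 0.030 for CCNE1 and from -0.98 to 0.21 for E2F1, and the 7-day one from -1.0 to 0.036 for GINS4; the values above 0 are those without NCI-H2228. The causes of these shifts were not tested. Besides these, 196 summary values moved by less than the limits set. For a median the limit was the SD of the line medians. After 1 day these ran from 0.09 to -1.55, so the limit was wide and the count of 196 is no measure of stability. Of the values of single genes, 496 kept direction and side of the threshold, 20 came past it and 7 lost it. Single libraries per line and state limit all values within a line.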
